A study of Rattus norvegicus with 6 samples.

Results

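The genes described here are 35 members of the NF-kB pathway and of the Toll-like receptor and TNF receptor routes that lead to it, out of 20675 rat genes in the deposited table. They were chosen by gene symbol, and all 35 symbols were found. Polyadenylated RNA was sequenced from disc cells of the rat temporomandibular (jaw) joint, cultured as primary cells. The cells had been given either GSK101, an agonist of the calcium-permeable channel TRPV4, or DMSO, the solvent control, for 24 h, with 3 libraries in each group. The labels give no genotype, strain, sex or age, and do not say whether the replicates came from separate animals or cultures, so p-values reflect only how these libraries vary, and that variation could be technical.

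NF-kB is a family of dimeric transcription factors that inhibitors of the IkB family hold inactive in the cytoplasm. Toll-like receptors and TNF receptors act through adaptor proteins and kinases on the IKK complex, which marks the IkB proteins for degradation and frees the dimers. Many of the genes that NF-kB then switches on encode its own inhibitors and subunits, so the pathway contains its own feedback. A separate, non-canonical branch processes the Nfkb2 precursor and acts through Relb. In joint tissue the pathway is best known for carrying the response to interleukin 1 and TNF.

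The libraries held 43061102 to 45705238 counted reads, in which the mates of a read pair may each have been counted. Fibroblast markers in the controls ran from Pdgfra at 11.7 ± 0.456 to Col3a1 at 3521 ± 227 RPKM (SD, n = 3). Col1a1 was at 1903 ± 135 and Thy1 at 1500 ± 76.5. RPKM, the unit of all levels here, corrects reads for gene length and library size. Of the chondrocyte markers, the cartilage collagen gene Col2a1 had 0 to 8 reads per library. Cilp was at 54.4 ± 3.56, Acan at 33.6 ± 3.88, Prg4 at 11.0 ± 2.26 and Sox9 at 2.80 ± 0.158 RPKM in the controls. Chad, Comp and Matn3 were at 0.546, 0.341 and 0.104. None of the 5 tested leukocyte markers passed the test in limma, and 0 of them had an unadjusted p under 0.05 there or in limma-voom. The summed level of the 10 leukocyte markers in the table was 63.6 to 81.1 RPKM in the controls and 62.3 to 84.3 with GSK101. That sum was mostly Lyz2, a lysozyme gene, at 59.8 ± 7.18 and 61.2 ± 9.30 RPKM. The defining leukocyte gene Ptprc was at 0.493 ± 0.0720 and 0.419 ± 0.0629 RPKM, and no marker was at 0 in all 6 libraries. Of the 5 untested markers the macrophage gene Cd163 had groups that did not overlap, at 0.0158 ± 0.00530 and 0.0792 ± 0.0414 RPKM on 2 to 24 reads (exact two-sided permutation p = 0.1, the smallest that 3 against 3 allows). The other untested markers, Ptprc, Adgre1, Csf1r and Cd3e, had overlapping groups and lower means with GSK101. Adgre1 was at 0.335 ± 0.0931 and 0.238 ± 0.0313 RPKM, and Csf1r at 0.308 ± 0.0396 and 0.299 ± 0.0439. The 7 endothelial markers summed to 0.778 to 1.03 RPKM in the controls and 1.22 to 1.41 with GSK101. That sum was mostly Kdr, which alone of them passed the filter and rose, from 0.551 ± 0.0795 to 1.01 ± 0.0485 RPKM. The other endothelial markers overlapped between the groups, with means that moved in both directions, and Cdh5 had 0 to 10 reads. Of the 7 markers of pericytes and smooth muscle 4 of the 6 tested fell, namely Acta2, Myh11, Mcam and Cnn1. The sum of the 7 went from 5490 to 5705 RPKM in the controls to 3036 to 3317 with GSK101. It was mostly Acta2, at 4946 ± 105 and 2734 ± 121 RPKM. Cspg4 and Des, tested and not called, and the untested Rgs5 had higher means with GSK101 and overlapping groups. Of 7 fibroblast markers 3 rose and 1 fell, and of 5 tested chondrocyte markers 1 rose and 1 fell. The part that a shift between cell types had in the results below was not tested. In a bulk sample, fewer cells of a type and less RNA per cell cannot be told apart.

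GSK101 shifted the pathway's genes modestly and in both directions. The TNF receptor 2 gene Tnfrsf1b, the inhibitor genes Nfkbia and Nfkbiz and the target genes Tnfaip2 and Sod2 were among 7 that rose. The subunit genes Relb and Nfkb2 and the inhibitor genes Nfkbib and Nfkbie were among 5 that fell. Several members widely used as readouts of NF-kB activity, among them Icam1, Birc3 and Traf1, did not pass the test. Among targets outside the 35, Cxcl1, Ccl2 and Il6 rose, Il15 fell, and others such as Ptgs2 and Irf1 did not pass. Of the 35 genes 31 reached 0.5 RPKM in 3 or more libraries and were tested, and Tlr2, Tnfaip3, Bcl3 and Vcam1 were not. The 12 calls were 38.7% of the 31 tested members, where 31.9% of all 12801 tested genes were called, by limma at a Benjamini-Hochberg adjusted p under 0.05. Of the members 22.6% were called higher and 16.1% lower, against 20.1% and 11.9% of all genes. These shares lie near those of the whole table and show nothing particular to the pathway. Control and GSK101 values were fully separate for 18 of the 31 members, or 58.1%, and for 47.3% of all tested genes. The absolute log2 fold change had a median of 0.14 for the members and 0.16 for all tested genes on the log2(RPKM + 0.5) scale, and of all 35 members, tested or not, Nfkbiz and Bcl3 were the 2 whose means differed at least 2-fold. The median signed log2 fold change was 0.09 for the members and 0.03 for all tested genes.

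The split between rises and falls moved with the scaling between libraries. It was 7 and 5 with RPKM as deposited, 8 and 4 after rescaling to TPM, 5 and 7 with quantile normalization and 6 and 6 with median-ratio scaling. For all genes it was 2570 and 1518 as deposited and 1983 and 2141 with quantile normalization. Leaving out GSK101 replicate 1 left 2 members higher, leaving out GSK101 replicate 2 left 3, and leaving out control replicate 1 or 3 left 4.

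**Figure D1:**
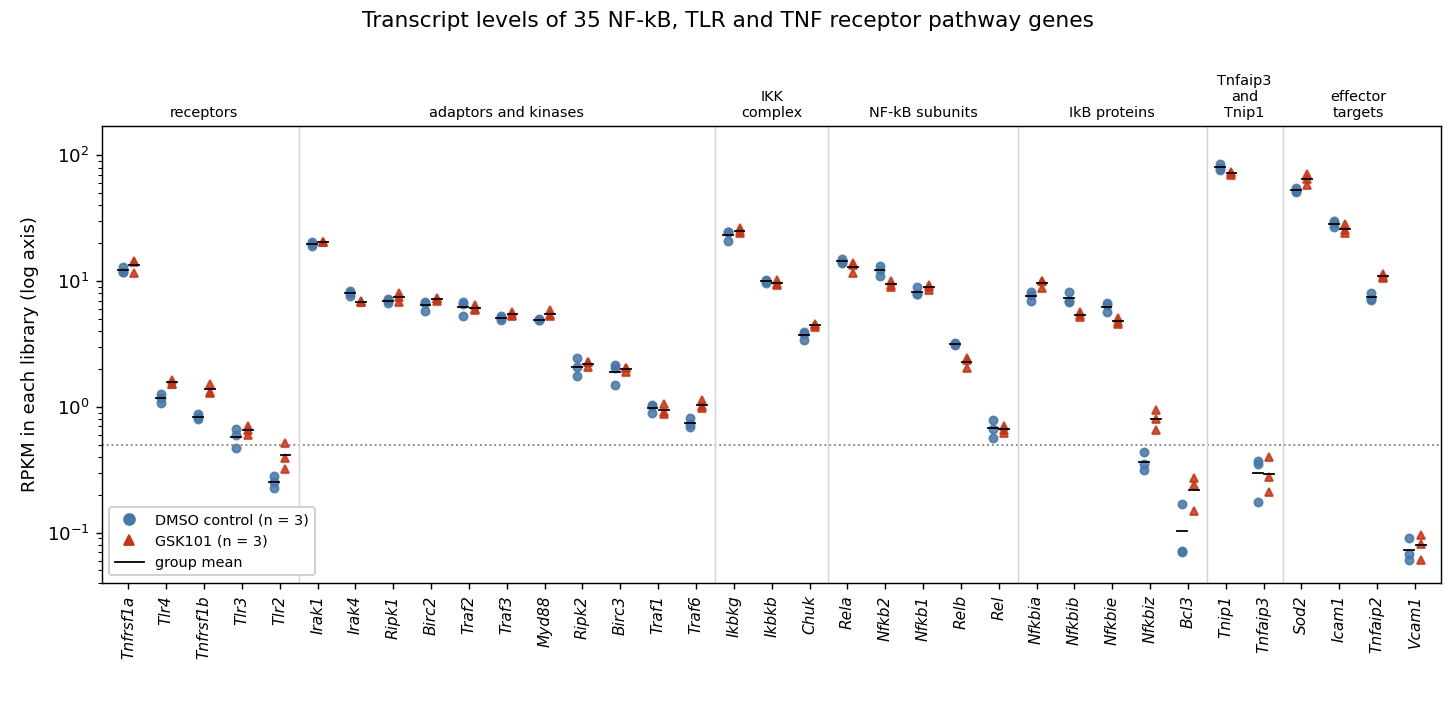
RPKM of each of the 35 genes in each library on a log axis, with control libraries as circles, GSK101 libraries as triangles and group means as bars (n = 3 per group), ordered by role. The dotted line marks 0.5 RPKM, the level used for the filter; Tlr2, Tnfaip3, Bcl3 and Vcam1 lie mostly below it, while Tnip1, Sod2, Icam1 and Ikbkg have the highest levels.

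Levels spanned a wide range across the pathway. In the controls 19 of the 35 genes had a mean of at least 5 RPKM and 10 had a mean under 1 RPKM. The most abundant were Tnip1 at 80.1 ± 4.38, Sod2 at 52.8 ± 1.99, Icam1 at 28.6 ± 1.63, Ikbkg at 23.2 ± 1.97 and Irak1 at 19.7 ± 0.736 RPKM (SD, n = 3). Vcam1, at 0.0729 ± 0.0157 RPKM, was the scarcest.

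The members were divided by known biology into 19 pathway components (receptors, adaptors, kinases, Rela and Nfkbib) and 16 target and feedback genes, whose transcription is known to be induced by NF-kB. Some components, such as Tlr2, Ripk2 and Tnfrsf1b, are also inducible, so the line is not sharp. Promoter sequences are given to show the elements that many genes of the second class carry. RefSeq promoters on the GRCr8 build, 250 bases before to 50 bases after each gene's start, were matched by symbol for 30 of the 35 genes, and not for Traf6, Ripk2, Relb, Birc3 and Ikbkb. The kappaB consensus, the 10-base element that NF-kB dimers bind, was searched on both strands with overlapping matches allowed. It was found in 10 of 14 target and feedback promoters and 3 of 16 component promoters, and in 7.51% of all 33469 promoters of the table. The class was drawn up from knowledge of inducibility, so this share is a description and not independent of the choice. Matches stood before genes that rose and before genes that fell, in 2 of 7 promoters of genes called higher and 2 of 4 of genes called lower. They also stood in 5 of 15 promoters of members not called and 4 of 4 of members not tested. A match does not show that a factor binds, and its absence concerns these 300 bases only.

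Whole promoters are shown for a gene that rose, the inhibitor gene Nfkbia (chr6:78597023-78597322, minus strand), and for a gene that fell, the subunit gene Nfkb2 (chr1:255108124-255108423, plus strand), both 5′ to 3′ along the gene with the kappaB match in capitals.
Nfkbia: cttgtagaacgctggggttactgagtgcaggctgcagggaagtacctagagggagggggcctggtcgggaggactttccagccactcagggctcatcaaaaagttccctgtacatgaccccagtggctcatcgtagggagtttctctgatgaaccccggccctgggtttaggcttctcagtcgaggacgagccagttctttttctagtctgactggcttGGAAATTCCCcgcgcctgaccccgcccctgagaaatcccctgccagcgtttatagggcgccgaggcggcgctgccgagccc
Nfkb2: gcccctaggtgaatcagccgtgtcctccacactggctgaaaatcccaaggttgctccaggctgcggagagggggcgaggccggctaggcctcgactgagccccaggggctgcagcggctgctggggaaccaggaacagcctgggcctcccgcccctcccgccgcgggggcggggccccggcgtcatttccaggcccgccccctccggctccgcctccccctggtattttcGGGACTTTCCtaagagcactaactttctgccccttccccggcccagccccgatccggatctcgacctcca

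Shorter windows, the match in capitals with 10 bases on each side, allow the elements of other target and feedback genes to be compared. They come from Nfkbiz, which rose (chr11:58251698-58251727, plus strand), Nfkbie, which fell (chr9:22948017-22948046, minus strand), Tnip1, which was not called (chr10:39585026-39585057, minus strand), and Vcam1, whose transcript was barely present (chr2:206742857-206742886, minus strand). The capitals of Tnip1 span 12 bases and hold 3 overlapping matches. For Tnfaip3, also scarce, the window holds 2 neighbouring matches (chr1:15544015-15544056, minus strand).
Nfkbiz: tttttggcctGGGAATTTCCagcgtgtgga
Nfkbie: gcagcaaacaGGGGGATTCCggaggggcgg
Tnip1: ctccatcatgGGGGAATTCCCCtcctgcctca
Vcam1: tccccttgaaGGGATTTCCCtccgcctctc
Tnfaip3: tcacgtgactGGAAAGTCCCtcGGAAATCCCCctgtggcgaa

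Of the 5 receptor genes, Tnfrsf1b and Tlr4 rose. Tnfrsf1b encodes TNF receptor 2, which lacks a death domain and recruits Traf2. It had 0.869, 0.802 and 0.829 RPKM in the controls and 1.51, 1.31 and 1.30 with GSK101, on 102 to 195 reads per library. Every GSK101 library lay above every control, and the rise was 1.65-fold by the ratio of means (log2 fold change 0.49, SE 0.10, adjusted p = 0.00713). This call held in all 16 alternatives, with adjusted p from 0.00109 to 0.0337. Tnfrsf1a, which encodes the main TNF receptor of most cells, was more abundant. Its values were 12.9, 11.9 and 11.7 RPKM in the controls and 14.3, 14.2 and 11.7 with GSK101, so the groups overlapped through GSK101 replicate 3. It did not pass (log2 fold change 0.13, 95% interval -0.07 to 0.32, adjusted p = 0.288), and it passed without GSK101 replicate 3 (adjusted p = 0.0426). The ratio of Tnfrsf1b to Tnfrsf1a RPKM within a library was 0.0673 to 0.0707 in the controls and 0.0925 to 0.111 with GSK101, without overlap.

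Tlr4, the receptor for bacterial lipopolysaccharide, had 1.18, 1.27 and 1.07 RPKM in the controls and 1.65, 1.53 and 1.52 with GSK101. The groups did not overlap, and it rose 1.34-fold (log2 fold change 0.31, SE 0.09, adjusted p = 0.0361). The call was lost in 8 of 16 alternatives, including without any single library other than control replicate 2, where the adjusted p ran from 0.0688 to 0.117, and over all alternatives it ran from 0.0125 to 0.117. Tlr2, which senses bacterial lipoproteins, was below the filter, with 0.253, 0.281 and 0.227 RPKM in the controls and 0.390, 0.519 and 0.322 with GSK101, on 26 to 61 reads. Its groups did not overlap either (1.62-fold, exact two-sided permutation p = 0.1, the smallest that 3 against 3 allows). Tlr3, an endosomal sensor of viral RNA, lay between 0.471 and 0.708 RPKM in all libraries with overlapping groups and did not pass (adjusted p = 0.573). Leukocytes are rich in these receptors. Of the leukocyte markers given above the 5 tested did not pass. Of those not tested Cd163 was higher in every GSK101 library, while Ptprc, Adgre1, Csf1r and Cd3e overlapped and had lower means. The part of leukocytes in these values was not tested.

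Among the 11 adaptor and kinase genes Irak4 fell. Irak4 encodes the first kinase recruited by Myd88 below Toll-like and interleukin 1 receptors. It had 8.05, 8.36 and 7.57 RPKM in the controls and 6.83, 6.89 and 6.76 with GSK101, with no overlap and very close GSK101 values. The decrease was 1.17-fold (log2 fold change -0.21, SE 0.06, adjusted p = 0.0233). The call was lost without any single library other than control replicate 3 (adjusted p from 0.0561 to 0.0729) and after rescaling to TPM (adjusted p = 0.0652). Over the alternatives its adjusted p ran from 0.00764 to 0.0729. The adaptor gene Myd88 had 4.99, 4.93 and 4.93 RPKM in the controls and 5.86, 5.35 and 5.32 with GSK101. Its groups did not overlap but it did not pass (log2 fold change 0.14, adjusted p = 0.12). Irak1, the kinase acting after Irak4, had 20.4, 19.9 and 18.9 RPKM against 20.6, 20.4 and 20.4, again apart by a narrow margin and not called (adjusted p = 0.422). An exon of Irak1 overlaps the microRNA gene Mir5132 on the same strand, and no other member shares exon positions with another gene of the table.

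Traf6, the ubiquitin ligase shared by the Toll-like and interleukin 1 receptor routes, had 0.727, 0.689 and 0.820 RPKM in the controls and 0.979, 1.01 and 1.13 with GSK101. Its GSK101 values were all higher, by 1.40-fold in the mean, but it stayed above the threshold (log2 fold change 0.31, SE 0.10, adjusted p = 0.0552). It passed after rescaling to TPM (adjusted p = 0.0430), without a mean-variance trend (adjusted p = 0.0162) and with limma-voom (adjusted p = 0.0296), with a range over the alternatives of 0.0162 to 0.148. Birc2, a ubiquitin ligase of TNF receptor complexes, had 5.82, 6.70 and 6.85 RPKM in the controls and 7.25, 6.96 and 7.30 with GSK101, which did not overlap and did not pass (adjusted p = 0.161). Traf3, a brake on the non-canonical branch, had 5.10, 4.88 and 5.29 RPKM against 5.29, 5.68 and 5.41, barely apart, with adjusted p = 0.288. The remaining members of this group overlapped between treatments and did not pass, with log2 fold changes from -0.03 to 0.09. They are the adaptor genes Traf1 and Traf2, the death-domain kinase gene Ripk1, the NOD receptor kinase gene Ripk2 and Birc3, an inducible relative of Birc2. Traf1 and Birc3 are classic NF-kB targets. They had 0.981 ± 0.0778 and 1.89 ± 0.342 RPKM in the controls against 0.947 ± 0.0972 and 2.00 ± 0.0796 with GSK101 (SD, n = 3), with 95% intervals for the log2 fold change of -0.28 to 0.21 and -0.19 to 0.35.

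**Figure D2:**
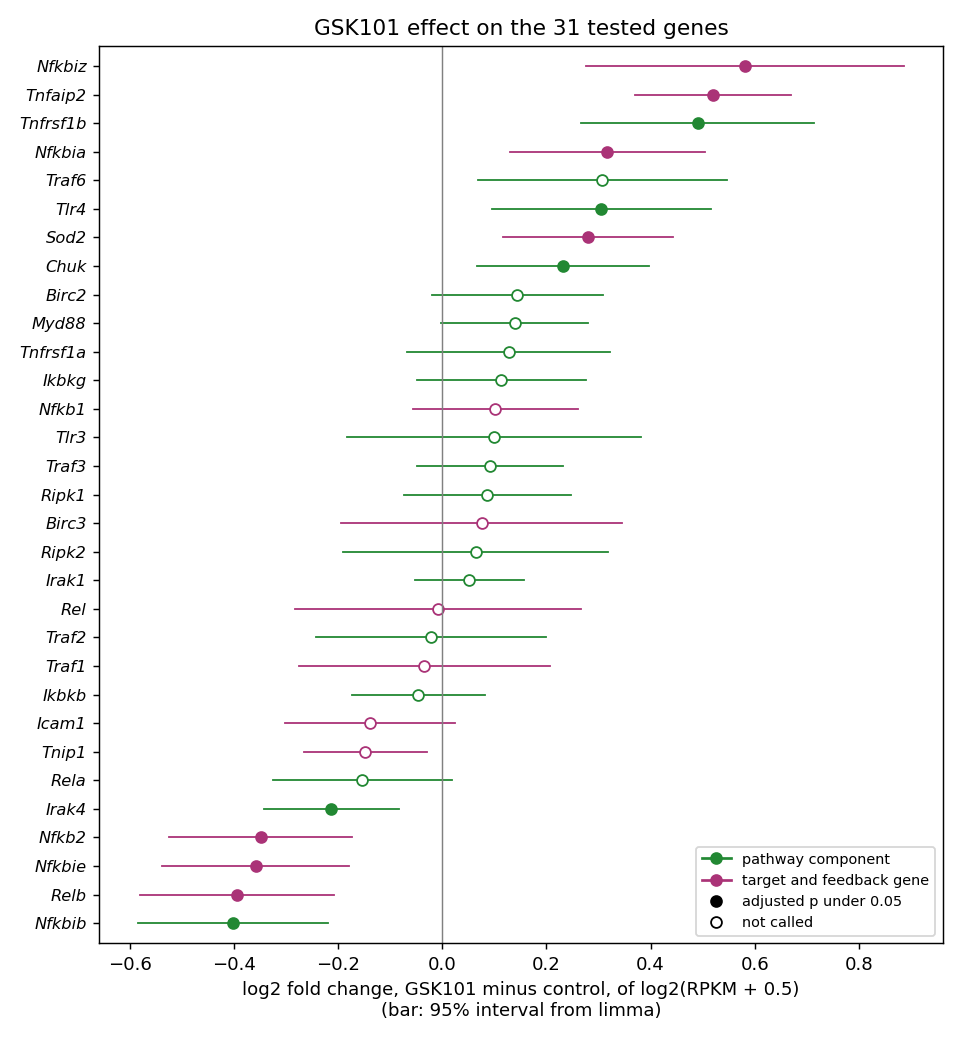
Log2 fold change of each of the 31 tested genes, GSK101 minus control, with its 95% interval from limma, in order of size. Filled symbols passed an adjusted p of 0.05, and both pathway components and target and feedback genes occur among those that rose and those that fell.

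Of the 3 genes of the IKK complex, Chuk passed the test. Chuk, which encodes the IKK alpha kinase needed for the non-canonical branch, had 3.42, 3.81 and 3.94 RPKM in the controls and 4.56, 4.51 and 4.30 with GSK101. It lay higher in each GSK101 library and rose 1.20-fold (log2 fold change 0.23, SE 0.07, adjusted p = 0.0403). The call was lost in 9 of 16 alternatives. Among these were the omission of any library other than control replicate 3 (adjusted p from 0.0628 to 0.120), median-ratio scaling (adjusted p = 0.0691) and quantile normalization (adjusted p = 0.137). Over all alternatives the adjusted p ran from 0.0119 to 0.137. Ikbkb, the IKK beta kinase of the canonical branch, stayed between 9.33 and 10.2 RPKM in all 6 libraries, with a log2 fold change of -0.05 (95% interval -0.17 to 0.08). Ikbkg, the regulatory subunit NEMO, went from 23.2 ± 1.97 to 25.1 ± 1.26 RPKM (SD, n = 3) with overlapping groups and adjusted p = 0.258.

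Of the 5 NF-kB subunit genes, Relb and Nfkb2 fell. Both belong to the non-canonical branch. Relb had 3.20, 3.16 and 3.10 RPKM in the controls and 2.46, 2.34 and 2.05 with GSK101. The controls were tightly grouped and all GSK101 values lay below them. The decrease was 1.38-fold by the ratio of means (log2 fold change -0.39, SE 0.08, adjusted p = 0.00833). Nfkb2, whose precursor yields the DNA-binding partner of Relb, had 13.3, 12.2 and 11.0 RPKM in the controls and 8.99, 10.02 and 9.30 with GSK101. The groups did not overlap, and it fell by 0.35 (SE 0.08, adjusted p = 0.0107), 1.29-fold. Both calls held in all 16 alternatives, with adjusted p up to 0.0278 for Relb and 0.0429 for Nfkb2.

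The subunits of the canonical dimers did not pass. Rela, the main transactivating subunit, had 15.1, 14.3 and 13.9 RPKM in the controls and 13.3, 14.0 and 11.6 with GSK101, overlapping by a narrow margin (log2 fold change -0.15, adjusted p = 0.155). It was called lower with quantile normalization (adjusted p = 0.0450). Nfkb1, which encodes the most common partner of Rela, had 8.26 ± 0.648 and 8.89 ± 0.399 RPKM (SD, n = 3) with adjusted p = 0.298, and Rel, a subunit best known from lymphocytes, had 0.674 ± 0.113 and 0.664 ± 0.0426 with adjusted p = 0.966. Within a library the ratio of Relb to Rela RPKM was 0.212 to 0.223 in the controls and 0.168 to 0.185 with GSK101, whereas Nfkb1 to Rela was 0.555 to 0.596 and 0.664 to 0.732. The 2 ratios moved apart in opposite directions, and neither overlapped between the groups. Relb was called lower, so the first ratio in part restates that call, and neither Nfkb1 nor Rela was called. Each ratio had an exact two-sided permutation p of 0.1, the smallest that 3 against 3 allows.

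The genes of the IkB family were divided. Nfkbia encodes IkB alpha, the fast-turnover inhibitor that NF-kB itself induces. It had 8.25, 7.79 and 6.91 RPKM in the controls and 10.1, 10.1 and 8.83 with GSK101, without overlap. The rise was 1.26-fold (log2 fold change 0.32, SE 0.08, adjusted p = 0.0200). The call was lost without control replicate 3 (adjusted p = 0.0505), GSK101 replicate 1 (adjusted p = 0.0709) or GSK101 replicate 2 (adjusted p = 0.0686), the range over the alternatives being 0.00717 to 0.0709.

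Nfkbiz encodes IkB zeta, a nuclear member that assists transcription of secondary response genes such as Il6. It was scarce in the controls, at 0.351, 0.438 and 0.313 RPKM, and had 0.942, 0.801 and 0.659 with GSK101, on 56 to 170 reads per library. All GSK101 libraries lay above all controls. It is the 1 tested member that entered the test through the GSK101 libraries alone, so the filter itself favoured a rise, and the counts of members that rose include it. The ratio of means was 2.18-fold, the largest among the tested members, and the log2 fold change, understated at these low values, was 0.58 (SE 0.13, adjusted p = 0.0127). With no filter on low values the adjusted p was 0.0171. Without GSK101 replicate 1 it was 0.0523, and over the alternatives it ran from 0.000405 to 0.0523. Bcl3, another nuclear IkB, was below the filter at 0.0696, 0.169 and 0.0721 RPKM against 0.238, 0.269 and 0.148, on 6 to 23 reads. Its groups overlapped (exact two-sided permutation p = 0.2).

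Nfkbib and Nfkbie, which encode the cytoplasmic inhibitors IkB beta and IkB epsilon, both fell. Nfkbib had 8.19, 6.80 and 6.96 RPKM in the controls and 5.36, 5.64 and 5.20 with GSK101, a decrease of 1.35-fold without overlap (log2 fold change -0.40, SE 0.08, adjusted p = 0.00703). Nfkbie had 6.71, 5.69 and 6.44 RPKM in the controls and 5.10, 4.73 and 4.52 with GSK101, a decrease of 1.31-fold without overlap (log2 fold change -0.36, SE 0.08, adjusted p = 0.0107). Both calls held in all 16 alternatives, with adjusted p up to 0.0270 and 0.0371. In RPKM, Nfkbia and Nfkbib were nearly level in the controls, with a ratio of 0.993 to 1.15 within a library. With GSK101 the ratio was 1.70 to 1.87. Nfkbia was called higher and Nfkbib lower, so this ratio restates those calls and is not separate evidence. Such ratios were computed for 12 pairs of members. They overlapped between the groups for Nfkb2 to Relb and Birc3 to Birc2, among others, and did not overlap in 6 pairs. Each of the 6 had an exact two-sided permutation p of 0.1, the smallest possible, and 0.2 after adjustment over the 12.

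Tnfaip3 and Tnip1 belong to the ubiquitin-dependent brake on the pathway. Tnfaip3, a ubiquitin-editing enzyme that ends NF-kB signalling and a sensitive target gene, was below the filter, at 0.349, 0.177 and 0.370 RPKM in the controls and 0.276, 0.397 and 0.209 with GSK101. These 19 to 44 reads per library overlapped fully between the groups (exact two-sided permutation p = 1), and no difference was detectable at this depth. Tnip1, the partner of Tnfaip3 and the most abundant of the 35 transcripts, had 84.7, 79.6 and 76.0 RPKM in the controls and 72.5, 74.4 and 69.8 with GSK101. All GSK101 values were lower, but it did not pass (log2 fold change -0.15, SE 0.05, adjusted p = 0.0595). It was called lower with median-ratio scaling (adjusted p = 0.0242), quantile normalization (adjusted p = 0.0367), limma-voom (adjusted p = 0.0339) and without control replicate 3 (adjusted p = 0.0333). Its range over the alternatives was 0.0242 to 0.213.

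Of the 4 effector target genes, Tnfaip2 and Sod2 rose, Icam1 did not pass and Vcam1 was barely present. Tnfaip2, a TNF-induced gene, had 8.07, 7.26 and 7.09 RPKM in the controls and 10.9, 11.4 and 10.5 with GSK101. Every GSK101 value lay above every control, and the 1.46-fold rise (log2 fold change 0.52, SE 0.06, adjusted p = 0.00109) had the smallest adjusted p of the 31 members and held in all 16 alternatives. Sod2, the mitochondrial superoxide dismutase, had 51.9, 55.1 and 51.4 RPKM in the controls and 70.5, 64.6 and 58.2 with GSK101. It was higher in each treated library and rose 1.22-fold (log2 fold change 0.28, SE 0.07, adjusted p = 0.0191). Its call was lost without control replicate 1 or 3 or GSK101 replicate 1 or 2 (adjusted p from 0.0515 to 0.0554), and over the alternatives the adjusted p ran from 0.00265 to 0.0554.

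Icam1 and Vcam1 encode the adhesion molecules that leukocytes bind on activated cells. Icam1 was abundant in both groups, at 30.1, 28.9 and 26.9 RPKM in the controls and 25.4, 28.4 and 24.1 with GSK101. The groups overlapped, and the log2 fold change was -0.14 (95% interval -0.30 to 0.03, adjusted p = 0.177). Vcam1 had 0.0601, 0.0681 and 0.0904 RPKM against 0.0953, 0.0606 and 0.0811, on 11 to 17 reads, with overlapping groups (exact two-sided permutation p = 0.7). Among the target and feedback genes, then, 4 of 13 tested rose and 3 fell, and among the components 3 of 18 rose and 2 fell. The called shares were 53.8% and 27.8%, beside the 31.9% of all tested genes, and their median log2 fold changes were -0.01 and 0.10. The difference between the classes was not tested.

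**Figure D3:**
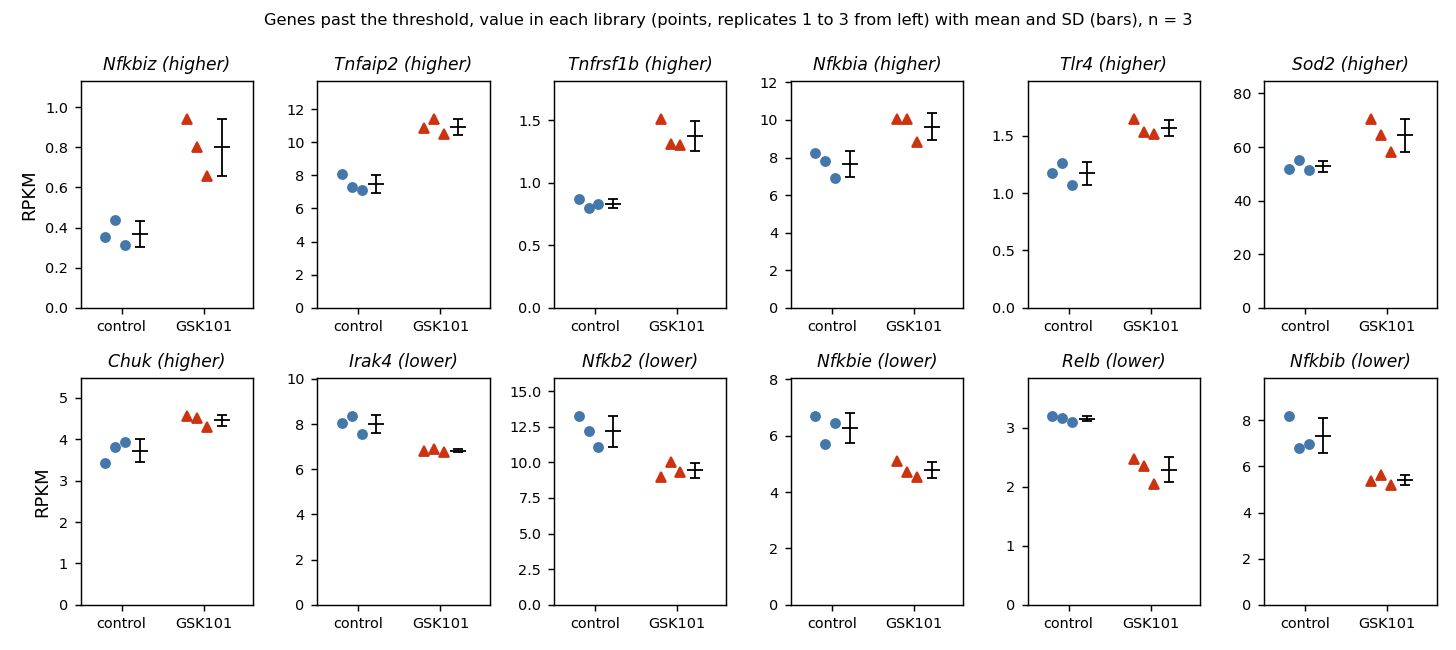
RPKM in each library for the 12 genes past the threshold, with controls as circles, GSK101 libraries as triangles, and the mean and SD of each group beside them (n = 3), each on its own axis from 0. In none of the 12 do the groups overlap, and Tnfaip2 had the smallest adjusted p (7.47 ± 0.521 against 10.9 ± 0.462).

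The GSK101 libraries also differed among themselves in these genes. In each of the 7 members that rose, replicate 3 had the lowest of the 3 GSK101 values, and it was also lowest in 4 of the 5 that fell, Nfkb2 being the exception. Over all 31 tested members replicate 3 was lowest in 20, replicate 1 in 6 and replicate 2 in 5. Across all 12801 tested genes the shares were 37.4%, 26.7% and 35.9%. Replicate 3 also had the smallest number of counted reads, 43061102, and RPKM is scaled to that number. Whether the lower values are technical was not tested.

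**Figure D4:**
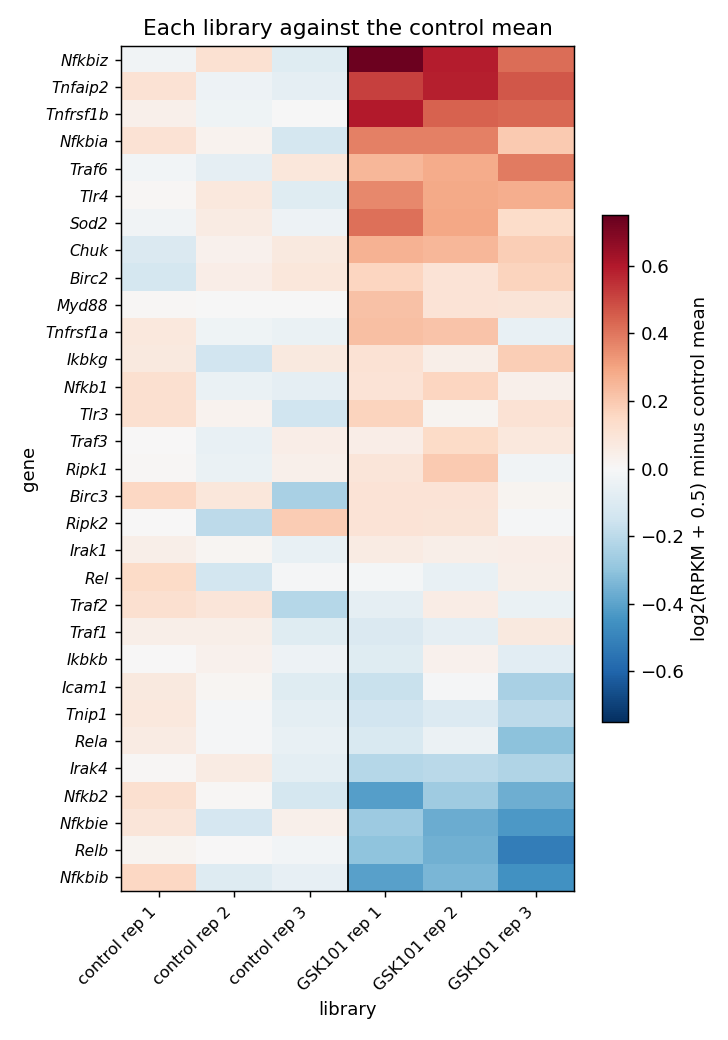
Log2(RPKM + 0.5) of the 31 tested genes in each library, minus the mean of the 3 controls, with red above and blue below it. The upper and lower rows separate the groups in every library, and the rises of Nfkbiz and Sod2 are palest in GSK101 replicate 3, where Nfkbiz had 0.659 and Sod2 58.2 RPKM.

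Several members are neighbours on the Rnor_6.0 genome, the build of the table. Relb and Bcl3 lie close together on chromosome 1 (80517411 to 80544825 and 80730499 to 80744831, minus strand). Relb fell, whereas the few Bcl3 reads had a higher mean with GSK101. Birc2 and Birc3 are adjacent on chromosome 8 (6013207 to 6034142 and 6048969 to 6076598, minus strand), and neither was called. Traf3 and Tnfaip2 are near each other on chromosome 6 (135610743 to 135718564 and 135890931 to 135903647, plus strand), and of these Tnfaip2 rose. Birc2 and Birc3 are also related in sequence, and no source used here says how reads shared between them were counted.

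Around the 35 genes, a wider set of 86 pathway genes was drawn up, of which 77 were in the table and 55 were tested. Of the 55, 13 or 23.6% rose and 5 or 9.1% fell, beside 20.1% and 11.9% of all tested genes. Tnf itself was not analysed here. Of the ligand genes only Tnfsf12, which encodes TWEAK, an activator of the non-canonical branch, was tested. It had 18.9 ± 0.362 RPKM in the controls and 14.4 ± 0.580 after the agonist, a fall of 1.31-fold (log2 fold change -0.38, adjusted p = 0.00114). The gene of its receptor, Tnfrsf12a, had 78.04 ± 0.141 and 82.6 ± 2.36 RPKM and did not pass (adjusted p = 0.144).

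Cd14, the co-receptor that hands lipopolysaccharide to Tlr4, rose 1.69-fold from 1.88 ± 0.169 to 3.18 ± 0.321 RPKM (log2 fold change 0.63, adjusted p = 0.00233), and Tlr6, also tested, did not pass. Of 6 tested genes of other TNF receptors, Tnfrsf11b, the decoy receptor osteoprotegerin, rose 1.39-fold (adjusted p = 0.00027). Ltbr, the lymphotoxin beta receptor, which signals to the non-canonical branch, fell by 0.18 on the log2 scale (adjusted p = 0.0365). Its call was lost in 7 alternatives, among them rescaling to TPM (adjusted p = 0.133) and leaving out control replicate 1 or 2 or GSK101 replicate 1 or 3 (adjusted p from 0.0932 to 0.111), with a range over all alternatives of 0.0164 to 0.133. Of 17 further adaptors and kinases, Tank, an adaptor of the TBK1 kinase, rose 1.28-fold (adjusted p = 0.00554). Irak3, an inhibitory relative of Irak4 that restrains Toll-like receptor signalling, rose 1.25-fold (adjusted p = 0.0188). Traf5, a TNF receptor adaptor, and Tab2, an adaptor of the TAK1 kinase, fell by 0.22 and 0.16 on the log2 scale (adjusted p = 0.0194 and 0.0455). The Irak3 call was lost without GSK101 replicate 1 or 3 (adjusted p = 0.0599 and 0.0538). The Traf5 call was lost in 5 alternatives, among them leaving out control replicate 2 or any one GSK101 library (adjusted p from 0.0548 to 0.0594). The Tab2 call was lost in 10 alternatives, among them leaving out any one of the 6 libraries (adjusted p from 0.0505 to 0.153). Over all alternatives the adjusted p began at 0.00345 for Irak3, 0.00875 for Traf5 and 0.0168 for Tab2 and did not exceed these upper values.

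Of 13 tested genes of ubiquitin editing and other inhibitors 2 rose. Itch, a ubiquitin ligase that works with Tnfaip3, rose 1.27-fold (adjusted p = 0.00147), and Otud7b, a deubiquitinase that restrains the non-canonical branch, rose 1.22-fold (adjusted p = 0.00987). Cyld, a deubiquitinase of the canonical branch, did not pass (adjusted p = 0.0753). Of 16 other tested NF-kB targets 7 rose and 1 fell, beside 20.1% and 11.9% of all tested genes. The list was drawn up with earlier results of these data known. Its count, and the size of its changes beside those of the members, are therefore a description only. The 3 with the smallest adjusted p were the neutrophil chemokine gene Cxcl1 at 4.32 ± 0.556 against 20.4 ± 6.09 RPKM (adjusted p = 0.000345), the monocyte chemokine gene Ccl2 at 30.04 ± 3.16 against 67.6 ± 14.8 (adjusted p = 0.00146), and the macrophage growth factor gene Csf1 at 38.5 ± 3.07 against 55.4 ± 3.90 (adjusted p = 0.00179). Il6 also rose, from 4.51 ± 0.268 to 8.03 ± 1.51 RPKM (adjusted p = 0.00297). The gene that fell was Il15, a cytokine gene, from 4.98 ± 0.341 to 3.11 ± 0.429 RPKM (adjusted p = 0.0035). These targets, several of which also answer to other transcription factors, thus include changes larger than any among the 31 tested members, where the largest absolute log2 fold change was 0.58.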

How the data were processed

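The values are RPKM as the authors deposited them, relative to gene length and to each library's gene-assigned reads, in 1 table with gene lengths and exon positions. The submitters' processing notes list the build Rnor_6.0, STAR 2.5.3a, Trimmomatic 0.36, Subread 1.5.1 with featureCounts, and edgeR 3.12.1, without their roles. The libraries were stranded and carried molecular identifiers, per the labels' protocols. No source used here says whether duplicates were collapsed or strand was used in counting. RPKM times length came out as whole multiples of a fixed step in each library, within 0.01 of a read, for 100% of values, and that step was taken as 1 read. Of the values from 1 to 10 reads 71.3 to 74.7% were even and, per the labels' protocols, sequencing was paired-end. Both mates of a fragment may therefore have been counted, so the independent fragments behind a printed read number may be fewer, and limma-voom took these reads as its counts.

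Groups were compared with limma 3.58.1 (R 4.3.3) on log2(RPKM + 0.5), group as the only term, with a mean-variance trend, over genes with at least 0.5 RPKM in at least 3 libraries. Adjusted p-values are Benjamini-Hochberg over all 12801 such genes, and untested members have exact permutation tests. The test was tried on simulated data. Alternatives were other pseudocounts, filters, scalings and variance models, limma-voom on the recovered reads, a replicate block and leaving out each library.

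All 35 members are given, those called or not overlapping with each library's value. From each wider list up to 3 called genes a direction are named by smallest adjusted p, and others named were chosen after their values were seen. Members and lists were chosen with earlier results of these data known.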

Additional observations from a re-analysis of the deposited data

How the results depend on the processing

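Of the 12 called members, 6 kept their call under every alternative that tested them (Tnfrsf1b, Tnfaip2, Relb, Nfkb2, Nfkbib and Nfkbie), and 6 lost it in at least 1. No member was called in the opposite direction under any alternative. Members higher ranged from 2 to 6 and members lower from 4 to 6 without single libraries. Components higher ranged from 1 to 2, components lower from 1 to 2, and target and feedback genes higher from 1 to 4. Components higher numbered 1 with no filter, with quantile normalization and with the replicate block, and components lower numbered 1 after rescaling to TPM. The cause was not tested, except that leaving out a library reduces the samples. Samples with the same replicate number showed no sign of deviating together (correlations of 0.05, -0.06 and 0.05). With so few libraries this check cannot settle whether the numbers pair samples, and the labels do not say. With the replicate block 5 members were higher and 5 lower, against 7 and 5 without it, and 2508 and 1437 of all genes. Depth limits Tlr2, Tnfaip3, Bcl3 and Vcam1, with 6 to 61 reads per library.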

Other observations

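Among genes below the filter, Tnip3 and Tlr5 were singled out after their values were seen. Tnip3, a relative of Tnip1, had 0.104 ± 0.0244 RPKM in DMSO and 0.268 ± 0.0204 in GSK101 (SD over 3 libraries, with 17 to 60 reads each), a 2.58-fold ratio of means without overlap (exact two-sided permutation p = 0.1, the smallest that 3 against 3 allows). Tlr5, the flagellin receptor gene, had 0.219 ± 0.0622 and 0.431 ± 0.0380 RPKM (28 to 90 reads), a 1.97-fold ratio without overlap (exact two-sided permutation p = 0.1).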
